A study of Mus musculus with 8 samples.

Results

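The genes described here are the core genes of the mammalian circadian clock: Arntl, Clock, Per1, Per2, Per3, Cry1, Cry2, Nr1d1, Nr1d2 and Dbp. They were chosen by name, as all non-control probes that carry one of these gene names on the array. All 10 were present, with 14 probes of 39429, and all 10 passed the filter on dim probes, among 19994 genes tested. The samples were described by the labels as pancreatic beta cells of C57BL/6 mice fed a chow control diet or a high-fat diet, snap frozen after sacrifice, with 4 biological replicates per diet. No genetic change or further agent is named for either group, and both groups share the strain and the cell type. The age of the mice, the length of the diet, the way the cells were isolated, whether a replicate is 1 animal or a pool, and the hour of collection are not given in the sources used here.

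The clock is a feedback loop of transcription. The proteins of Arntl (also called Bmal1) and Clock bind together to E-box sequences and activate the Per and Cry genes, whose proteins return to repress the activators. Nr1d1 and Nr1d2, the REV-ERB nuclear receptors, are also activated through E-boxes and repress Arntl through ROR elements, while Dbp activates genes through D-box sequences. In many tissues these genes cycle over the day, with Arntl near its peak when Nr1d1 and Dbp are near their trough. In beta cells the clock is known to bear on insulin secretion.

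The stretches of promoter before the start sites of 4 members are shown because the levels of Nr1d1, Nr1d2 and Dbp had like orders over the arrays and Cry1 differed most between the slides. Capitals mark a match to the E-box (CACGTG) or to the E-prime box (CACGTT, which reads AACGTG on the other strand), both strands having been searched. The sequences are those of RefSeq on GRCm38.p6, each 250 bases long, written 5′ to 3′ along the gene. They lie at chr11:98775378-98775627 on the minus strand for Nr1d1, chr14:18239107-18239356 on the minus strand for Nr1d2, chr7:45704997-45705246 on the plus strand for Dbp and chr10:85185055-85185304 on the minus strand for Cry1.
Nr1d1: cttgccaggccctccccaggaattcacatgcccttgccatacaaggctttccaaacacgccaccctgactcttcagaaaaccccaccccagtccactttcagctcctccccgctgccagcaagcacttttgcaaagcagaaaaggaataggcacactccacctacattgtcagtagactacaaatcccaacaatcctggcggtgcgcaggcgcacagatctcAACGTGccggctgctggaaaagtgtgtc
Nr1d2: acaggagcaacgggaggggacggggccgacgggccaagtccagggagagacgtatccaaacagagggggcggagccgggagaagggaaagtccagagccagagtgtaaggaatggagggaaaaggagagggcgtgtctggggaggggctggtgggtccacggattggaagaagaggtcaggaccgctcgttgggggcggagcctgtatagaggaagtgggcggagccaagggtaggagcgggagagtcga
Dbp: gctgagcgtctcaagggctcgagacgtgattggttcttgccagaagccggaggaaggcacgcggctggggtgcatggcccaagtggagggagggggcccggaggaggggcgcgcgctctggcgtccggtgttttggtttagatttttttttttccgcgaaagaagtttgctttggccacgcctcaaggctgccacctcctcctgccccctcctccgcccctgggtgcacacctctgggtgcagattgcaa
Cry1: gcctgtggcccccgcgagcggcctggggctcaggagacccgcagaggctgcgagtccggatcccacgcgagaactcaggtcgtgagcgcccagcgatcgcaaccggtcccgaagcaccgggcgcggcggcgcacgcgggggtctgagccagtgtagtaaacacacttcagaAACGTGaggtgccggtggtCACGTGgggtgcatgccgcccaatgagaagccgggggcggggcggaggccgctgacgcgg
The Nr1d1 window held an E-prime box whose first base lies 28 bases before the start site. The Cry1 window held an E-box at 60 bases and an E-prime box at 79 bases before its start site. None of the motifs searched matched in the windows of Nr1d2, Dbp or Clock, which says only that these letters are not in these windows. Of 32851 mouse promoter windows, from 250 bases before to 50 bases after a start site, 7.15% held an E-box and 4.68% an E-prime box, so a match in any one window is not rare.

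Of the other members, Per1 held an E-box 166 bases before 1 of its start sites, and Cry2 held an E-prime box 166 bases before its own. Per3 held a pair of D-boxes (TTANGTAA), at 205 and 158 bases before the start, a motif found in 2.32% of all windows. Arntl held a ROR element, the sequence read by REV-ERB and ROR receptors, which 0.606% of all windows held. Its first base is base 28 counted from the start site, at position 113207511 of chromosome 7, as base 1. The element is shown with its flanks, at chr7:113207529-113207556 on the plus strand of GRCm38.p6, with the match in capitals.
Arntl: gaaggcagaAAGTAGGTCAgggacggag
A promoter window was found for 9 of the 10 members, 13 windows in all, and Per2 had none in the table used.

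Levels are given as the log2 of the processed spot signal minus the 75th percentile of the same array, so that 0 is a signal at that percentile. The 8 arrays lay on 2 slides with both diets on each. Positions 1 and 3 of each slide carried control samples and positions 2 and 4 high-fat samples, so diet and odd or even position cannot be told apart. Replicates 1 and 2 of each diet were on slide 1, and replicates 3 and 4 on slide 2. The lower replicate number of a slide lay at positions 1 and 2 and the higher at positions 3 and 4. Place on the slide and replicate number therefore cannot be told apart either. Each array had 43020 non-control spots, of which 63.6% to 68.6% were well above background, and the 75th percentile ranged from 335.8 to 715.4 intensity units. All 8 beta cell markers were measured, with a summed linear level (1 being the 75th percentile) of 728 to 1056.3 in the control and 812.78 to 1087 in the high-fat samples. Of 7 acinar markers 6 were measured, at 868.7 to 1742.5 and 1026.3 to 1870.0, and of 6 alpha cell markers 6, at 268.56 to 369.92 and 275.93 to 335.21. RNA of other pancreatic cells was therefore present beside that of beta cells. In whole samples, fewer cells of a type and less RNA per cell cannot be told apart.

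No clock gene passed the adjusted threshold for diet (0 of 10), and neither did any other gene (0 of 19994). This does not show that the levels were unchanged. The member with the smallest unadjusted p was Cry2, at a 1.39-fold ratio of high-fat to control, and it did not pass after adjustment. The levels of the other 9 overlapped between the diets. The spread between single arrays was wide for some members: Nr1d1 spanned 6.38-fold over the 8 arrays, Cry1 3.81-fold, Nr1d2 3.62-fold and Dbp 2.35-fold. By contrast, Arntl spanned 1.39-fold and Clock 1.33-fold. Cry1 and the lower levels of Nr1d1 were dim.

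**Figure D1:**
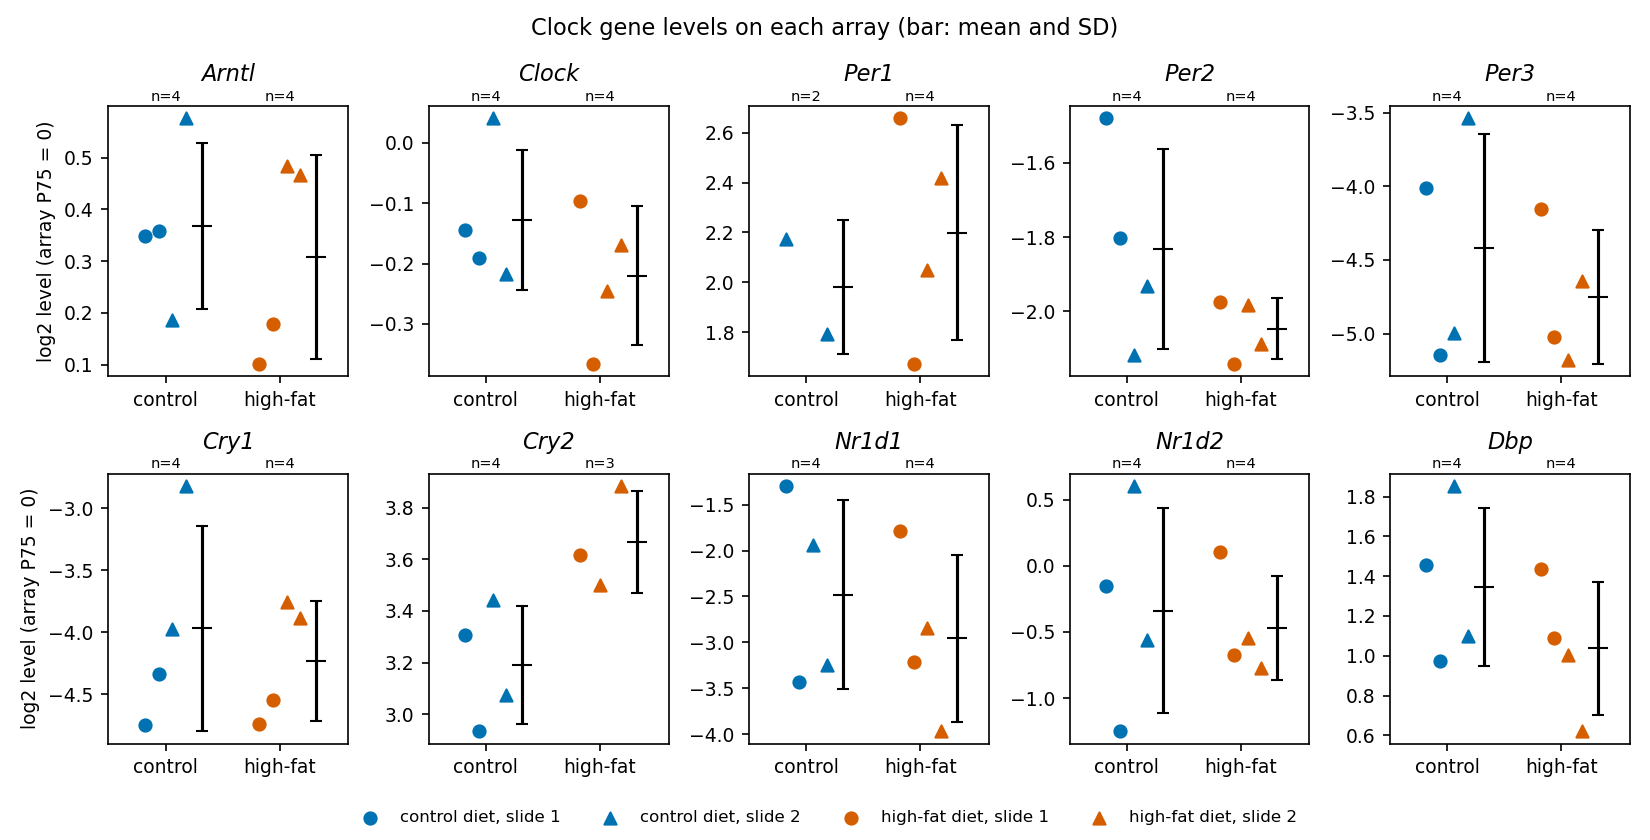
Log2 level of the 10 clock genes on each array, relative to the array's 75th percentile, by diet and slide, with the mean and SD of each diet as bars. Nr1d1 spans 6.38-fold over the arrays and Clock 1.33-fold, and the diets overlap for every gene but Cry2.

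The activators were the steadiest members. Arntl stood at 0.35, 0.36, 0.19 and 0.58 on control arrays 1 to 4 and at 0.10, 0.18, 0.48 and 0.47 on high-fat arrays 1 to 4. The diets overlapped, with the lowest high-fat values on slide 1 and the higher ones on slide 2. The high-fat minus control difference was -0.06 ± 0.14 (SE, n = 4 and 4), with a 95% interval from -0.37 to 0.25 and an adjusted p of 0.966 (limma, Benjamini-Hochberg over all genes). Clock, the partner of Arntl, read -0.15, -0.19, 0.04 and -0.22 in the control and -0.10, -0.37, -0.25 and -0.17 in the high-fat samples. Its difference was -0.09 ± 0.11, with an interval from -0.34 to 0.15. The standard deviation within groups was 0.18 for Arntl and 0.12 for Clock, against a median of 0.248 over all genes, which places Clock at the 10.1st percentile.

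Among the repressors, Cry2 had the clearest contrast between diets. Cry2 encodes a cryptochrome that binds and silences the activator pair. Its level was 3.31, 2.93, 3.44 and 3.08 on control arrays 1 to 4, and 3.62, 3.50 and 3.88 on high-fat arrays 1, 3 and 4. The spot on high-fat array 2 was marked as an outlier by the scanner software and left out, and it read 3.61. Every high-fat value, the marked one included, lay above every control value, as 3.38% of all genes measured on 8 arrays did in either direction and 1.73% did upward. The difference was 0.48 ± 0.17 (n = 4 and 3, the fit dropping the marked spot), with an unadjusted p of 0.023 and an adjusted p of 0.776 (limma). The same direction held on both slides, at 0.50 on slide 1 and 0.43 on slide 2. A second probe for Cry2, which detects another transcript model, gave 0.73, 0.09, 0.14 and -0.11 in the control and 1.62, 0.05, 0.35 and 0.56 in the high-fat samples, a difference of 0.44. Its groups overlapped, and high-fat array 1 stood above the other arrays.

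The first probe for Cry2 lay at chr2:92243807-92243866 and the second at chr2:92251417-92251476, both on the minus strand of mm9, the build of the probe positions. At the unadjusted level Cry2 was 1 of 10 clock genes with p under 0.05, against 5.86% of all genes, and at the adjusted level 0 of 10 against 0% of all genes (0 of 19994, with 1171 at an unadjusted p under 0.05).

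Cry1, the other cryptochrome, is a dim gene here, above background on all 8 arrays. It stood at -4.75, -4.34, -3.97 and -2.82 in the control and -4.74, -4.54, -3.76 and -3.88 in the high-fat samples. Control array 4 was the highest, and the diets overlapped, with a difference of -0.26 ± 0.42 and an adjusted p of 0.956. Among the period genes, Per1, a repressor that also responds quickly to hormones and activity, was measured on 6 arrays. It read 2.17 and 1.79 on control arrays 3 and 4 and 2.66, 1.67, 2.05 and 2.42 on high-fat arrays 1 to 4, the marked spots of control arrays 1 and 2 reading 2.05 and 2.06. The difference was 0.22 ± 0.30 (n = 2 and 4, the fit dropping the marked spots), and its second, dimmer probe differed by 0.23.

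Per2, a partner of the cryptochromes in repression, stood at -1.48, -1.80, -2.12 and -1.93 in the control and -1.97, -2.14, -1.98 and -2.09 in the high-fat samples. Control arrays 1, 2 and 4 lay above all high-fat arrays and control array 3 below all but high-fat array 2. The difference was -0.21 ± 0.14, with an adjusted p of 0.923. Per3, a less central period gene, was above background on only 4 arrays, namely replicates 1 and 4 of each diet. Its levels ran from -5.14 to -3.54 in the control and from -5.18 to -4.16 in the high-fat samples, a difference of -0.33 ± 0.39.

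**Figure D2:**
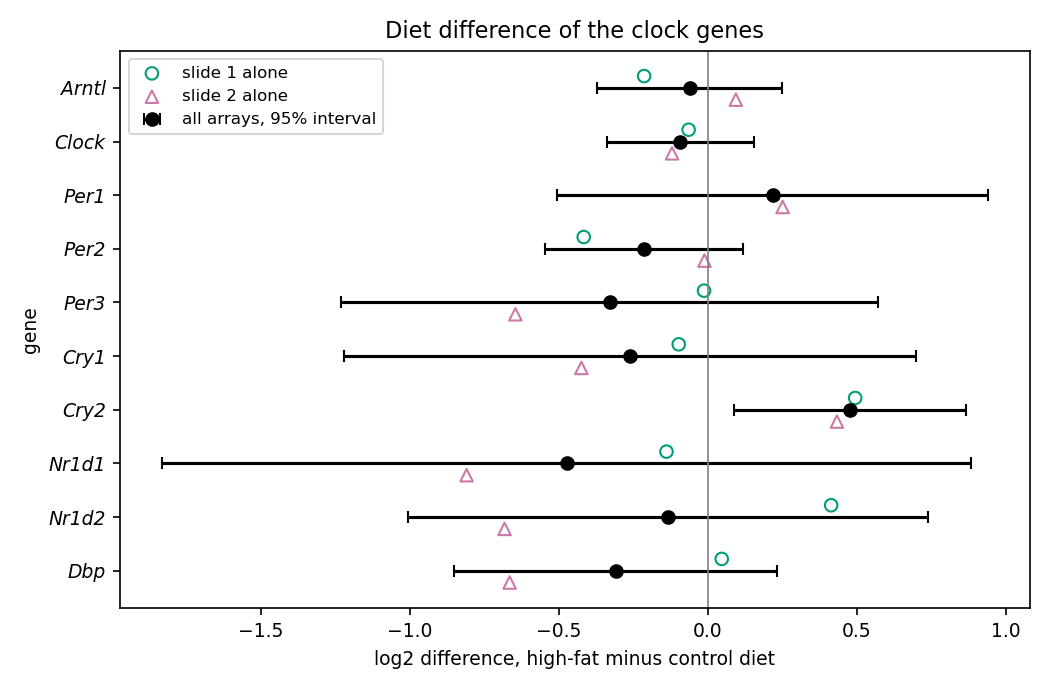
Difference in log2 level, high-fat minus control diet, for the 10 clock genes, with the 95% interval from limma (bars) over all arrays and the value within each slide alone. The interval lies above 0 for Cry2 alone, with no adjustment for the number of genes, and the slides lie on opposite sides of 0 for Nr1d2, Dbp and Arntl.

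The nuclear receptors form a second loop onto Arntl, and Dbp carries the clock's output. Nr1d1 had the widest spread of all 10 members. It read -1.30, -3.43, -1.94 and -3.25 on control arrays 1 to 4 and -1.79, -3.21, -2.84 and -3.97 on high-fat arrays 1 to 4. The arrays at the first position of each slide and high-fat array 1 were high, and the others were low in both diets. The difference was -0.47 ± 0.59, with an adjusted p of 0.941 and an interval from -1.83 to 0.89, and without control replicate 1 it was -0.08. Its within-group standard deviation was 0.97, at the 96.7th percentile of all genes. The lower levels of Nr1d1 were dim, the lowest at the control mean of Cry1 (-3.97), though its probe was above background on all 8 arrays. In the deposited value table Nr1d1 averaged 8.38 in the control and 8.28 in the high-fat samples. Cry1 averaged 8.12 and 8.09 there. The probe for Nr1d1 spans chr11:98630526-98631028 of mm9, 503 bases for 60 bases of probe.

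Nr1d2 read -0.15, -1.25, 0.60 and -0.56 in the control and 0.10, -0.67, -0.55 and -0.77 in the high-fat samples. Control array 3 was the highest and control array 2 the lowest, so the control range enclosed that of the high-fat samples. The difference was -0.13 ± 0.38, with an adjusted p of 0.972. Dbp, a transcription factor activated through E-boxes, read 1.46, 0.97, 1.85 and 1.10 in the control and 1.44, 1.09, 1.01 and 0.62 in the high-fat samples. Its highest value was again on control array 3 and its lowest on high-fat array 4. The difference was -0.31 ± 0.24, with an interval from -0.85 to 0.23 and an adjusted p of 0.925.

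Where a gene had a second probe, its agreement with the first varied. The probes of Nr1d2 correlated with r = 0.93 and those of Dbp with r = 0.96 over the 8 arrays, descriptions of the same RNA samples. Those of Cry2 correlated with r = 0.54 over 7 arrays and those of Per1 with r = -0.32 over 6.

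Counted together, 2 of the 10 members had a difference above 0 and 8 below it, with a median of -0.17, against 0.00093 over all genes, of which 49.8% lay below 0. The members share samples and covary, so this is a description. Under normexp background correction, where the median over all genes was 0.128, the differences of Clock, Per2, Per3, Cry1 and Nr1d1 turned to above 0 and that of Per1 to below 0. In all, 7 spots were smeared, with a local background over 4 times the array's median. With the smeared spots left out of that correction, the median over all genes was 0.029. Of these members only Cry1 then stayed turned, at 0.017.

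The diet differences were then set side by side between the slides. The high-fat minus control difference of Nr1d2 was 0.41 on slide 1 and -0.68 on slide 2. Dbp gave 0.05 and -0.66, and Arntl -0.21 and 0.09. The test of the difference itself, the diet by slide interaction in limma, passed for no member: it was -1.10 ± 0.73 for Nr1d2 (unadjusted p = 0.183), -0.71 ± 0.45 for Dbp (unadjusted p = 0.159) and 0.41 ± 0.24 for Per2 (unadjusted p = 0.137). It could not be fitted for Per1. Over all genes 0 of 19963 passed and 6.86% had an unadjusted p under 0.05. On simulated data this test recovered 28.4% of planted interactions of 2 log2 units, and 1.49% of those of 1 log2 unit.

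Slides, fitted beside the diets, separated Cry1 most. It averaged -4.59 on slide 1 and -3.61 on slide 2, a difference of 0.98 ± 0.25 in the fit, or 1.98-fold, and all 4 arrays of slide 2 lay above all 4 of slide 1. Its adjusted p was 0.0897 (limma), so it did not pass, and 9.45% of all genes separated the slides upward in the same way. With normexp background correction the value was -0.12, but the sign was kept when the smeared spots were left out of that correction. In the deposited value table it was 0.11, on a narrower scale. Control means of Cry1 and Cry2 there were 8.12 and 11.90, against -3.97 and 3.19 here. Over all members 0 of 10 passed, against 3.38% of all genes (676 of 19989, 631 higher on slide 2 and 45 lower). That count fell to between 32 and 406 when any single array other than high-fat replicate 1 was left out, and stood at 605 without that one.

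**Figure D3:**
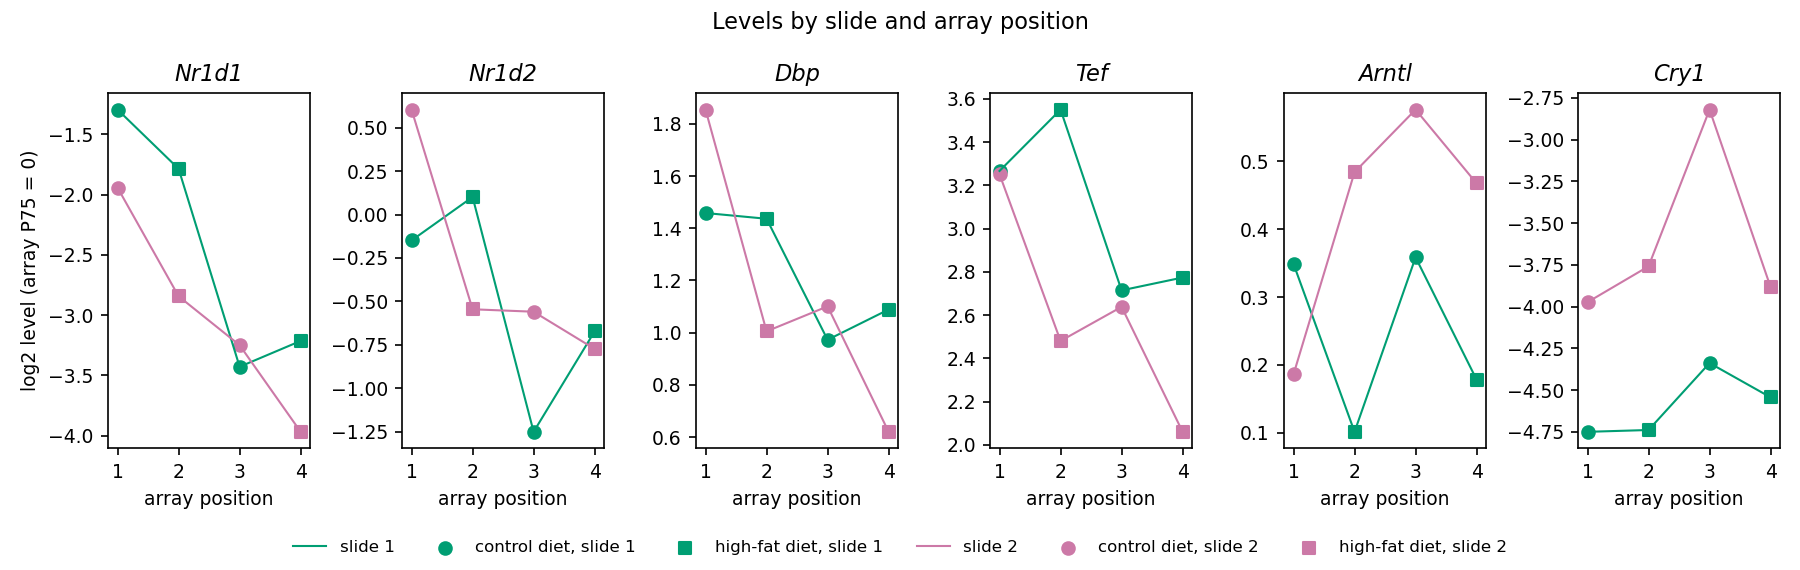
Log2 levels of Nr1d1, Nr1d2, Dbp, Tef, Arntl and Cry1 by array position on each slide, relative to the array's 75th percentile, with circles for control and squares for high-fat samples. On slide 1 the arrays at positions 1 and 2 lie above those at positions 3 and 4 for Nr1d1, Nr1d2, Dbp and Tef, and on slide 2 for these genes the array at position 1 is the highest and that at position 4 the lowest.

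Nr1d1, Nr1d2 and Dbp had like orders over the arrays, in both diets. On slide 1 both arrays at positions 1 and 2 (control replicate 1 and high-fat replicate 1) lay above both at positions 3 and 4. On slide 2 the array at position 1, control replicate 3, was the highest and that at position 4, high-fat replicate 4, the lowest. Whether these orders follow the position or the replicate cannot be told apart. Over the 8 arrays Nr1d1 and Dbp correlated with r = 0.86 and rho = 0.83, with an exact permutation p of 0.00578 and 0.127 after adjustment over the 44 member pairs with at least 6 arrays. Nr1d2 and Dbp correlated with r = 0.87 and rho = 0.88 (exact permutation p = 0.00508, adjusted 0.127). Nr1d1 and Nr1d2 gave r = 0.78 and rho = 0.86 (exact permutation p = 0.0215, adjusted 0.288). None of the 44 pairs passed after adjustment.

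The 3 relations held in sign in both slides and without the 2 arrays farthest from the median. Without those arrays r was 0.95 for Nr1d1 with Dbp, 0.88 for Nr1d2 with Dbp and 0.85 for Nr1d1 with Nr1d2. Within slide 1 r was 0.98, 0.96 and 0.88 in that order, and within slide 2 0.95, 0.97 and 0.91, each over 4 arrays. Under normexp correction the first became -0.11, but it kept its sign when the smeared spots were left out of that correction.

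Tef, a D-box factor of the same family as Dbp that was named after its values were seen, read 3.27, 2.71, 3.25 and 2.64 in the control and 3.55, 2.77, 2.48 and 2.06 in the high-fat samples. On slide 1 its levels at positions 1 and 2 again lay above those at positions 3 and 4. On slide 2 position 1 was again the highest and position 4 the lowest. The r of Tef with Dbp was 0.88. Among 19863 genes measured on all 8 arrays, Tef ranked 144 by likeness to Dbp, Nr1d2 156 and Nr1d1 225. Hlf, the other listed factor of the family of Dbp, had r = 0.56 with Dbp and ranked 3107, and Nfil3, a repressor at D-boxes also named after its values were seen, had r = -0.29. The 5 genes outside the clock set most like Dbp were Prdm10 (r = 0.99), Thap6 (0.98), D930001B02, Meaf6 and Crybg3 (0.97 each).

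The immediate early genes, which respond to stimulation and handling within minutes, are given beside these members. Their mean log2 level, over 23 of 27 listed genes, was -0.39, -0.69, -0.07 and -0.64 on control arrays 1 to 4 and -0.36, -0.71, -0.58 and -0.49 on high-fat arrays 1 to 4. On slide 1 positions 1 and 2 lay above positions 3 and 4, as for Nr1d1, Nr1d2 and Dbp. On slide 2 position 1 was the highest, but by this mean position 4 was not the lowest. Their summed level ranged from 51.419 to 73.563 in the control and from 42.597 to 61.764 in the high-fat samples. By summed level slide 1 read 65.502, 61.764, 51.419 and 42.597 at positions 1 to 4. Slide 2 read 73.563, 51.134, 53.335 and 49.465, so that position 4 was the lowest there by this measure. Ductal markers, 3 of 4 measured, had mean levels of -1.59, -0.52, -0.82 and -0.51 in the control and -0.73, -0.25, -1.60 and -0.42 in the high-fat samples, and summed levels from 4.3685 to 6.8905 and from 5.7264 to 7.378. The part of either in the result was not tested.

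**Figure D4:**
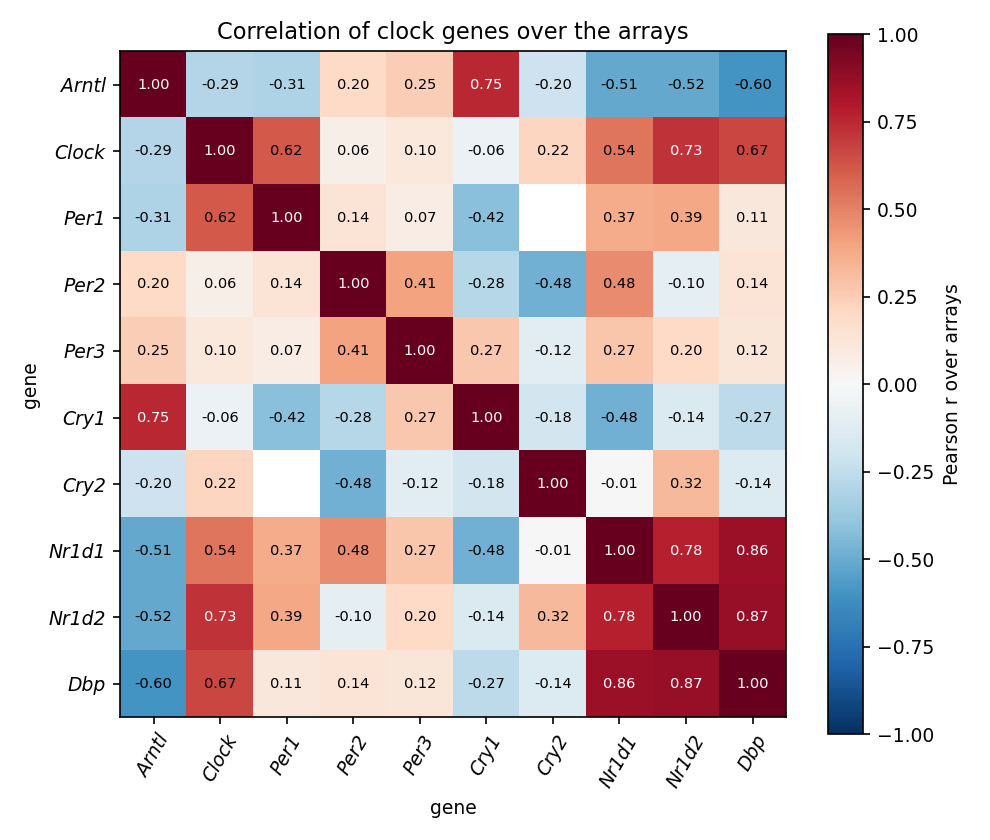
Pearson correlation of each pair of clock genes over the arrays on which both were measured, 6 to 8 arrays per pair, with the pair Per1 and Cry2 left blank for having fewer. The block of Nr1d1, Nr1d2 and Dbp reads 0.78 to 0.87, and Arntl reads -0.60 to -0.51 with these genes.

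Arntl was set against the other 9 members, since in many tissues it is near its peak when Nr1d1 and Dbp are near their trough. Cry1 had the highest relation, with r = 0.75 and rho = 0.81, an exact permutation p of 0.0262 and 0.235 after adjustment over the 9. It fell to r = 0.45 without the 2 arrays farthest from the median of Arntl. Leaving these out also narrows the range of Arntl, so the fall does not show what the relation rests on. Within slides r was 0.41 and 0.69, and with each slide centred on its own mean it was 0.60. With normexp correction the r of Arntl with Cry1 turned to -0.49. Dbp gave r = -0.60 (exact permutation p = 0.119, adjusted 0.433), which turned to 0.087 with normexp correction. The relations of Cry1 and Dbp kept their sign when the smeared spots were left out of that correction. Nr1d2 gave r = -0.52 and Nr1d1 r = -0.51. Among 19863 genes ordered from the highest r with Arntl, Nr1d1 ranked 17094, Nr1d2 17128 and Dbp 17980. Many genes outside the clock set thus had a lower r with Arntl than these members. None of the 9 passed after adjustment. The genes most like Arntl over the arrays were Dhx36, a helicase (r = 0.98), Lyplal1 (0.98), Nbn, a DNA repair gene (0.97), Rabl3 and Rtca (0.96 each), and Cry1 ranked 337.

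Genes that modify the clock were measured for 33 of 34. At an unadjusted p under 0.05, diet had 0 higher and 1 lower among them, against 2.59% and 3.27% of all genes, and none passed after adjustment. The lower was Zbtb20, a transcriptional repressor, with -0.42 ± 0.17. The median over the list was -0.03. Between slides 2 passed, both higher on slide 2: Rorb, a nuclear receptor that binds ROR elements, by 1.34 ± 0.19 (adjusted p = 0.019) and Ppp5c, a phosphatase, by 0.54 ± 0.09 (adjusted p = 0.0306). Rorb is a dim gene near background, at -5.70 to -4.93 on slide 1 and -4.07 to -3.56 on slide 2. The call of Rorb was lost with its direction kept in 6 of 18 alternatives, among them leaving out control replicate 1, 2 or 4 or high-fat replicate 4. It was also lost with normexp correction, where the sign turned to -0.22. With the smeared spots left out of that correction the difference of Rorb was 0.49, not called. The call of Ppp5c was lost in 12 of 19, including the removal of any one array.

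Genes that the clock drives were measured for 23 of 24. At an unadjusted p under 0.05, diet had 1 higher and 1 lower of the 23, against 2.59% and 3.27% of all genes, so the list's share is near the background, and none passed after adjustment. Cdkn1a, a cell cycle inhibitor, differed by 0.73 ± 0.20, and Hlf, a D-box factor of the family of Dbp, by -0.48 ± 0.12, which became 0.26 with normexp correction. The sign of Hlf was kept when the smeared spots were left out of that correction. For Cdkn1a and Hlf the 4 arrays of one diet did not overlap the 4 of the other, as for 3.38% of all genes. The median over the list was -0.04. Wee1, a cell cycle kinase, was 0.55 ± 0.11 higher on slide 2 (adjusted p = 0.0469), a call lost in 15 of 19 alternatives, including the removal of any one array other than control replicate 3.

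Genes induced by glucocorticoids, hormones that reset peripheral clocks, were measured for 17 of 17. At that unadjusted level diet had 4 higher and 0 lower, against 2.59% and 3.27% of all genes, with a median of 0.28. The 4 were Errfi1, Zbtb16, Sgk1 and Cdkn1a, which is also counted above among the genes that the clock drives. Summed levels of this list overlapped, at 140.91 to 221.89 in the control and 100.88 to 226.85 in the high-fat samples. Of the immediate early genes 0 were higher and 2 lower at the same unadjusted level, against the same shares, with a median of -0.24. No gene of either list passed after adjustment.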

How the data were processed

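RNA of 8 mouse beta cell samples, 4 per diet, was hybridised to 1-colour Agilent arrays with 1 array per sample. Spot intensities were deposited as processed signals of Feature Extraction 11.5.1.1, per the file headers. The authors' value table holds log2 values, for which the submitters' processing notes name limma; its centring and method are not given in the sources used here, and its column medians ran from 8.681 to 8.689. Each of its columns followed its own array, with r of 0.59 to 0.69 between deviations from the gene means, against at most 0.32 for another array.

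Here the log2 processed signal minus the array's 75th percentile was used, without control spots and the 125 to 228 spots per array marked as outliers. A probe was kept (26076 were) if 4 or more of the 8 arrays had it well above background, and a gene was read from its probe of highest mean. The tool for differences was limma 3.58.1 (lmFit and eBayes, R 4.3.3), with p-values adjusted by Benjamini and Hochberg over all genes, with a threshold of 0.05. Correlations across arrays used exact permutation of pairings, two-sided. The labels call the samples biological replicates. On simulated data the diet fit recovered 61.2% of planted differences of 1 log2 unit. That rate is not specific to the members, whose median within-group standard deviation was 0.382, against 0.248 over all genes. The members and lists were chosen with earlier results of these data known. From the lists, up to 4 genes by smallest unadjusted p per comparison could be named, and the report names only some of them; Tef and Nfil3 fall outside this rule. The 5 genes most like Arntl and Dbp were named by Pearson r. No annotation of mm9 was used, so no exon or UTR is given for a probe. Tables and figures were made with Python 3.11.15, pandas 2.3.3, scipy 1.17.1 and matplotlib 3.10.9.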

Additional observations from a re-analysis of the deposited data

How the results depend on the processing

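Of the 22 alternatives to the diet comparison, 19 again called 0 genes, and 1 was called with the deposited table, 1 with a trended and robust eBayes, and 0 to 2 without one array, the 2 being without high-fat replicate 1. The direction of Cry2 held in all 22 (0.37 to 0.56). The split of genes at an unadjusted p under 0.05 was 44.2% higher, against 66.5% with median scaling, 59.5% with normexp (58.3% without the 7 smeared spots of high-fat replicate 2) and 56.0% in the deposited table. The slide comparison called 676 genes, 0 with normexp, 186 with normexp without smeared spots, 447 with quantile normalization, 328 with median scaling, 354 with no filter, and 32 to 605 without one array. The interaction called 0 throughout, from 1370 genes at an unadjusted p under 0.05. Keeping marked spots, and the set of 44 pairs, were chosen after seeing the data. The cause of the turns of sign below was not tested.

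With normexp the diet difference was 0.0030 for Clock, -0.0095 for Per1, 0.27 for Per2, 0.53 for Per3, 0.64 for Cry1, 0.25 for Nr1d1, 0.83 for Rorb, -0.12 for Ppp5c, 0.45 for Bhlhe41, 0.26 for Hlf, 0.013 for Lpin1 and -0.015 for Leo1. The slide difference was -0.12 for Cry1, -0.021 for Nr1d2, 0.14 for Dbp, 0.14 for Zbtb20, -0.22 for Rorb, 0.044 for Ncor1 and -0.40 for Hlf. The interaction was -0.67 for Per2 and 7.6e-05 for Cry2. The correlation with Arntl was 0.19 for Per1, -0.61 for Per2, -0.64 for Per3, -0.49 for Cry1 and 0.087 for Dbp, and that of Nr1d1 with Dbp was -0.11. Without smeared spots fewer signs were turned. The diet difference was then 0.017 for Cry1, 0.12 for Rorb and -0.036 for Ppp5c, and the slide difference -0.074 for Per1. The interaction was 7.6e-05 for Cry2, and the correlation with Arntl 0.089 for Clock and -0.21 for Per3. The other values listed for normexp had the sign of the main setting again.

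In the deposited table the diet difference was 0.0013 for Rorb, -0.032 for Ppp5c and 0.00050 for Lpin1, the slide difference -0.089 for Per1, 0.0225 for Dbp and -0.0215 for Hlf, and the correlation with Clock 0.062. With median scaling the diet difference was 0.013 for Arntl and 0.0032 for Lpin1, the slide difference -0.10 for Clock, -0.024 for Per1, -0.0305 for Cry2 and -0.10 for Hlf, and the interaction 0.067 for Clock and 0.11 for Cry2. The slide difference was -0.29 for Cry2 with the mean of a gene's probes, -0.058 for Per1 without a diet term, -0.055 for Hlf with quantile normalization, -0.0039 for Per1 with marked spots kept and -0.39 for Cry2 with probes above background on all arrays. That last setting gave an interaction of 0.014 for Cry2 and a correlation of 0.17 for Per1. Slide 1 alone gave a diet difference of 0.41 for Nr1d2, 0.047 for Dbp, 0.089 for Lpin1 and 0.17 for Tef, and slide 2 alone 0.094 for Arntl. Within slide 1 the correlation with Arntl was 0.070 for Clock and -0.16 for Per3, and without the 2 farthest arrays 0.57 for Per1 and 0.36 for Cry2.

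Leaving out one array at a time, the diet difference ranged from -0.12 to 0.0100 for Arntl, -0.52 to 0.12 for Cry1, -0.44 to 0.18 for Nr1d2, -0.44 to 0.14 for Rorb, -0.10 to 0.14 for Ppp5c and -0.21 to 0.058 for Lpin1. The slide difference ranged from -0.36 to 0.23 for Per3, -0.17 to 0.44 for Nr1d2, -0.0056 to 0.11 for Clock, -0.038 to 0.13 for Hlf, -0.32 to 0.054 for Dbp and -0.43 to 0.56 for Per1. The interaction ranged from -0.25 to 0.13 for Cry2, -1.74 to 0.40 for Nr1d1, -0.19 to 0.079 for Clock, -1.36 to 0.095 for Per3 and -0.90 to 0.25 for Cry1. Deviations of same-numbered replicates correlated with r = 0.21, 0.40, -0.0041 and 0.30 for replicates 1 to 4. Replicate 3 did not correlate with its own number, so the numbers were not taken as pairs, and the other control samples correlated best with theirs. With the replicate block 0 genes were called and 1852 had an unadjusted p under 0.05, and Cry2 differed by 0.39. Probes near background limit Per3, Cry1 and Rorb, and dim signal limits the lower levels of Nr1d1.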
